A study of Mus musculus with 6 samples.

Results

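The 9 genes Saa1, Saa2, Saa3, Lcn2, S100a8, S100a9, Hp, Ptx3 and Slpi encode secreted proteins of the acute-phase and neutrophil type. They were chosen by name, and each has 1 row among the 53801 genes of the count table. RNA was sequenced from PDPN+PDGFRα+ stromal cells sorted from MO5 tumors, which grow from B16 melanoma cells that carry the ovalbumin gene. The host mice were on the C57Bl/6 background and 8 to 12 weeks old. In ADAM12-DTR mice (DTR, labelled DTR+) the diphtheria toxin receptor is expressed from an Adam12 promoter transgene, so that diphtheria toxin kills ADAM12+ cells. Their non-transgenic littermates (Ctrl, labelled DTR-) lack the receptor, and the labels list diphtheria toxin as the treatment of both groups. There were 3 libraries per group, and the labels do not say whether each came from 1 mouse, so the p-values measure the spread between libraries. The comparison asks how the stroma that is left after removal of ADAM12+ cells differs from control stroma.

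Acute-phase proteins are secreted in large amounts when tissue is injured or infected, classically by the liver and also locally by fibroblasts, macrophages and epithelial cells. Interleukin 6, acting through STAT3, and interleukin 1 and TNF, acting through NF-κB and C/EBP factors, are their usual inducers. In tumors, serum amyloid A, lipocalin 2 and the S100A8 and S100A9 pair are best known for their links to myeloid cells and inflammation.

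Of the 9 genes, Saa3 and Lcn2 had each DTR library below each Ctrl library, as had 8.19% of all genes tested, and their log2 fold changes were -2.04 and -3.11. S100a9, too low to be tested, also had such groups in CPM, with 77 reads over the Ctrl libraries, 59 of them in Ctrl replicate 1, against 11 over the DTR libraries. Hp, Ptx3 and Slpi had groups that overlapped, and Saa1 and Saa2 were close to the limit of detection. S100a8 groups overlapped too, with 18 reads in Ctrl replicate 1 and at most 6 in any other library. The pattern was thus not shared by the whole set, and Ptx3, the most abundant gene of the set per length, had its highest value in a DTR library.

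Promoters of Saa3 and Lcn2, whose groups did not overlap, and of Ptx3, whose groups did, are shown from 250 bases before to 50 bases after the RefSeq start (GRCm38.p6, 5′ to 3′ on the strand of the gene). Capitals mark matches, on either strand, to the C/EBP letters TTNCNNAA and, in Saa3 alone, to the NF-κB letters GGNNTTTCC. The Saa3 promoter is chr7:46715627-46715926 on the minus strand, that of Lcn2 is chr2:32387690-32387989 on the minus strand and that of Ptx3 is chr3:66219637-66219936 on the plus strand.
Saa3: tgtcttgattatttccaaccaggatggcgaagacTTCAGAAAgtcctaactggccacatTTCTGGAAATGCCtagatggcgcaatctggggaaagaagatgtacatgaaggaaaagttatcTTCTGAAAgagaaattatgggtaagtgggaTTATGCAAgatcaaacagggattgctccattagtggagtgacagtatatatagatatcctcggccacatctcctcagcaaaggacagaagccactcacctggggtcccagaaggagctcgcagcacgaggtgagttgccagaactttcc
Lcn2: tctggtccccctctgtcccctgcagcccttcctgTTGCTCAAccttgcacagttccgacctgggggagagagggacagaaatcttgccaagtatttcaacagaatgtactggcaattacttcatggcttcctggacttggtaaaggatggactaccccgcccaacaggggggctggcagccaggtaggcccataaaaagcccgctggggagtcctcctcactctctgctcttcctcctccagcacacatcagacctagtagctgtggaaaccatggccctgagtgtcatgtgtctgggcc
Ptx3: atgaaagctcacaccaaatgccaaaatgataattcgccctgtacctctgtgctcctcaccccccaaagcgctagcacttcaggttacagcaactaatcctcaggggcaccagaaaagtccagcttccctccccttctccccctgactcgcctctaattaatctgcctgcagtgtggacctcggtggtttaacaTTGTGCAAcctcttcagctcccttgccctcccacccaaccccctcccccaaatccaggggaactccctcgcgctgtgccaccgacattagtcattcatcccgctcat

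Promoters of 8 of the 9 genes were in the table, and Hp had none. All 8 held the C/EBP letters, which were also in 40.7% of the 32851 promoters, with 4 matches in Saa3 and 1 each in Lcn2 and Ptx3. The NF-κB letters were found in Saa3 only, against 5.82% of all promoters, and that match shares its first bases with a C/EBP match. STAT letters (TTCNNNGAA) were in none of the 8 and in 8.3% of all promoters, and the hypoxia response letters (ACGTG or GCGTG) were in Slpi only and in 43.8% of all. The letters of a TATA box (TATAAA) were found in S100a8 and S100a9 and in 13.6% of all promoters. They begin at base -30 in S100a8 but at base 1, the start site itself, in S100a9. These are counts of letters and not of bound sites.

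Libraries held between 22339635 and 34271929 reads on genes, and 3 reads, taken as the detection floor, amount to 0.0872 CPM in the deepest library and 0.132 CPM in the shallowest. Such limits and all intervals on reads cover counting error only. CPM are read counts scaled to library totals with TMM factors. Libraries correlated across genes with r from 0.961 to 0.974 within a group and from 0.953 to 0.974 between groups. Adam12, the gene whose promoter drives the receptor, was at 216, 181 and 175 CPM in Ctrl and 165, 151 and 112 CPM in DTR, an edgeR log2 fold change of -0.42 (SE 0.154, adjusted p = 0.602 with Benjamini-Hochberg adjustment). The sorting markers Pdgfra and Pdpn were present in every library, at no less than 42.6 and 46.0 CPM. The sorted fraction was not stroma alone, because 10 melanoma genes summed to between 15530 and 19360 CPM per library and 10 fibroblast genes to between 5211 and 14150 CPM. Fibroblast reads were uneven between libraries of 1 group, at 13680, 5247 and 5211 CPM in Ctrl and 10870, 5605 and 14150 CPM in DTR. In such bulk samples fewer cells of a type and less RNA per cell cannot be told apart.

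Of the 9 genes, 5 passed edgeR's filter on low counts (Saa3, Lcn2, Hp, Ptx3 and Slpi), and the other 4 (Saa1, Saa2, S100a8 and S100a9) are given by their reads. Lcn2 passed through its Ctrl libraries, all at 79 reads or more, while only 1 DTR library exceeded 10 reads. None of the 5 had an adjusted p under 0.05 in edgeR (quasi-likelihood test, Benjamini-Hochberg), and 0 of all 15133 genes tested did (0%), although 622 were lower and 577 higher at an unadjusted p under 0.05 and DESeq2 called 31. At an unadjusted p under 0.05 Saa3 and Lcn2 were lower, as were 4.11% of all genes tested. Because Lcn2 was admitted through the group in which it is high, nothing is read from the number of such genes, and with the filter set to 10 reads in every library 4 of the 9 were tested and Saa3 alone was lower at that p. DESeq2, the tool the study used, gave 7 of the 9 genes an adjusted p and called 2 of them lower, Saa3 and Lcn2, against 0.0688% of the 20360 genes it adjusted. The study had already singled out Saa3 and Lcn2 in these same libraries, so their direction is not independent evidence.

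Serum amyloid A proteins are apolipoproteins of high-density lipoprotein, and Saa3 is the form made mainly outside the liver. Saa3 (ENSMUSG00000040026; GRCm38, chromosome 7, 46711998 to 46715700) had 1094, 287 and 590 reads in Ctrl against 230, 146 and 168 in DTR, which is 44.6, 12.0 and 20.7 CPM against 6.68, 4.70 and 7.40 CPM. Each DTR value lay below each Ctrl value, and Ctrl varied far more than DTR, with replicate 1 at the top. The means were 25.8 ± 16.9 CPM (SD, n = 3) and 6.26 ± 1.40 CPM (SD, n = 3). The edgeR log2 fold change was -2.04 (SE 0.449, 95% interval -3.08 to -1.01, adjusted p = 0.602 with Benjamini-Hochberg adjustment). A two-sided exact permutation test gave p = 0.1, the smallest that 3 libraries against 3 can give. Without Ctrl replicate 1, the library with the most Saa3, the log2 fold change was -1.39, the value nearest to 0 when libraries were left out in turn. DESeq2 gave Saa3 a Benjamini-Hochberg adjusted p of 0.000321, and it called Saa3 in 4 of 6 fits with 1 library left out, losing the call without DTR replicate 1 or DTR replicate 3.

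Saa1 and Saa2, the circulating liver forms of serum amyloid A, were hardly detected in either group. They lie on chromosome 7 from 46740497 to 46742980 and from 46751790 to 46754313. Saa1 had 0, 0 and 1 reads in Ctrl and 4, 1 and 3 in DTR, so only 1 library exceeded 3 reads. The ratio of the read rates, DTR over Ctrl, was 7.10, with an exact 95% Poisson interval from 0.952 to 315 that covers counting error only. A single read, in Ctrl replicate 3, was counted on Saa2. Of the 50-base words in Saa1 transcripts 31.1% also occur in Saa2, so reads from one may have been lost or assigned to the other. For Saa3 only 0.346% of such words are shared with Saa1, and 3.57% with any other gene.

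Lcn2 encodes lipocalin 2, which binds bacterial siderophores and so withholds iron, and forms a complex with the protease MMP9. Lcn2 (ENSMUSG00000026822) lies on chromosome 2 from 32384633 to 32388252. It had 90, 79 and 84 reads in Ctrl and 8, 5 and 18 in DTR, or 3.67, 3.31 and 2.95 CPM against 0.232, 0.161 and 0.793 CPM. The Ctrl libraries were close together, unlike those of Saa3, and the highest DTR library was below the lowest Ctrl library. Group means were 3.31 ± 0.361 CPM (SD, n = 3) and 0.395 ± 0.346 CPM (SD, n = 3). The edgeR log2 fold change was -3.11 (SE 0.604, 95% interval -4.50 to -1.71, adjusted p = 0.602 with Benjamini-Hochberg adjustment), and the two-sided exact permutation test again gave its smallest p of 0.1. Leaving out 1 library gave log2 fold changes between -4.04, without DTR replicate 3, and -2.73. In DESeq2 Lcn2 had a Benjamini-Hochberg adjusted p of 0.00066, and it was called in the 5 of 6 fits with 1 library left out that gave it an adjusted p. Mmp9, its binding partner, was at 9.26, 3.14 and 4.67 CPM in Ctrl and 1.48, 1.64 and 1.23 CPM in DTR.

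**Figure D1:**
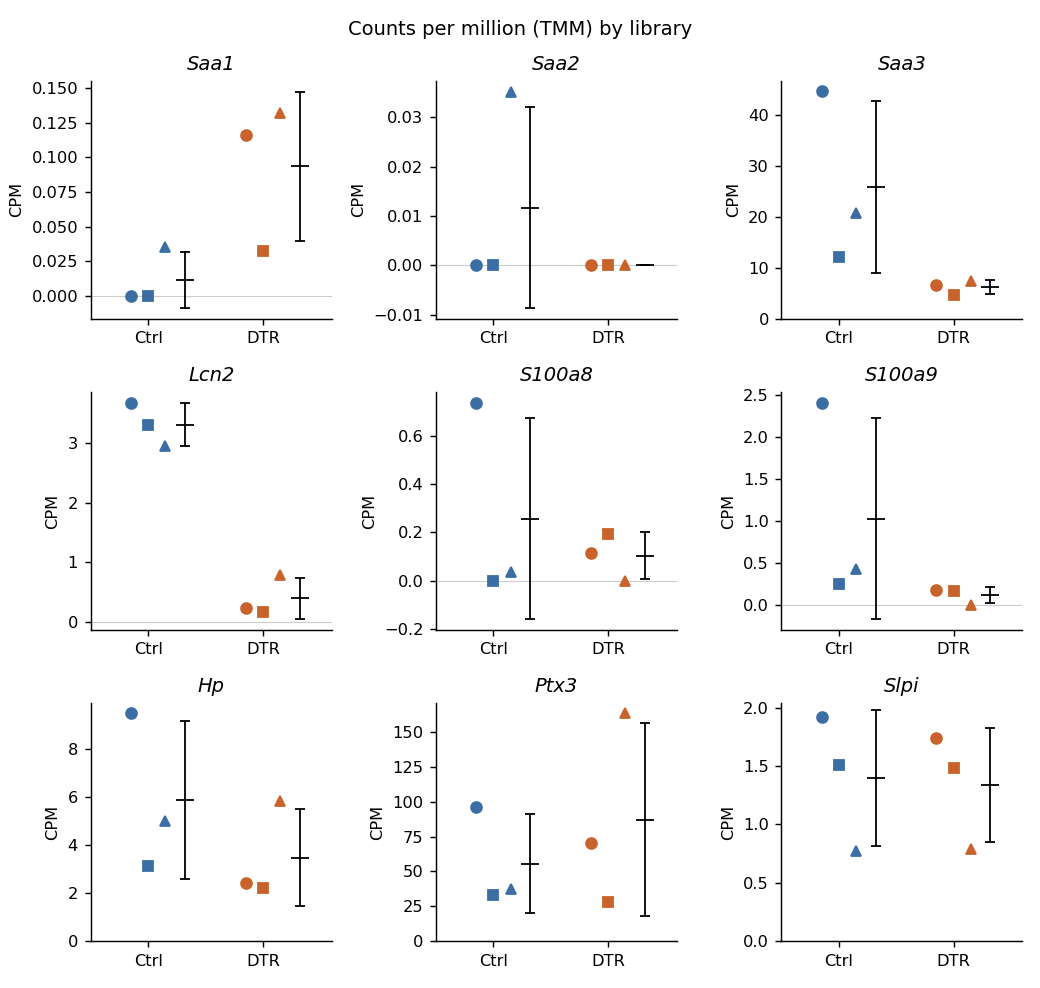
CPM (TMM-scaled) of the 9 genes in each library, on linear axes of their own; circles, squares and triangles are replicates 1, 2 and 3, and the black mark and bar are the mean and SD of 3 libraries. Saa3 and Lcn2 have every DTR library below every Ctrl library, whereas the top value of Saa3, Lcn2, S100a8, S100a9, Hp and Slpi is Ctrl replicate 1 and that of Ptx3 is DTR replicate 3.

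S100a8 and S100a9 encode the subunits of calprotectin, a calcium- and zinc-binding protein that fills the cytoplasm of neutrophils. S100a9 (chromosome 3, 90692632 to 90695721) had 59, 6 and 12 reads in Ctrl and 6, 5 and 0 in DTR. Ctrl replicate 1 alone thus held 59 of the 77 Ctrl reads, and the lowest Ctrl and the highest DTR library had the same number of reads and differed only after scaling, at 0.251 and 0.174 CPM. In the fit that kept every gene with a read, the edgeR log2 fold change of S100a9 was -3.07 (SE 1.05, adjusted p = 0.570 with Benjamini-Hochberg adjustment). S100a8 (chromosome 3, 90668978 to 90670035) had 18, 0 and 1 reads in Ctrl and 4, 6 and 0 in DTR. The S100a8 groups overlapped, and the ratio of read rates was 0.467 with an exact 95% Poisson interval from 0.194 to 1.06. Neither gene shares a 50-base word with another gene.

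CD45+ leukocytes had been gated out in the sort. Ptprc, which encodes CD45, was still at 16.3, 49.6 and 27.1 CPM in Ctrl and 34.6, 30.0 and 36.7 CPM in DTR. Neutrophil genes gave scattered reads. Of 18 listed, Ly6g and Camp were at 0 reads in all 6 libraries. Among the granule genes, Ltf was highest in Ctrl replicate 2 (2.22 CPM) and Mpo in DTR replicate 2 (1.48 CPM), Prtn3 had 2 to 14 reads in every library, and Ngp, Ctsg, Mmp8 and Elane did not exceed 0.316 CPM. The 18 genes summed to 53.7, 54.6 and 49.2 CPM in Ctrl and 42.7, 35.3 and 48.3 CPM in DTR, and most of that was Itgb2, an integrin subunit of all leukocytes. Itgb2 was at 36.1, 46.6 and 41.6 CPM in Ctrl and 33.2, 25.6 and 31.9 CPM in DTR. Ctrl replicate 1, which held most S100a9 reads and the highest value of Saa3, Lcn2, S100a8, Hp and also Slpi, was the highest library for 6 of the 16 neutrophil genes with reads, among them the receptors Cxcr2 (1.55 CPM, against at most 0.354 CPM in the others) and Csf3r (2.94 against at most 1.42). The other 10 peaked elsewhere, such as the decoy receptor Il1r2 in DTR replicate 3 (13.3 CPM). Itgb2 was lower, and Retnlg, at no more than 8 reads, was higher, in every DTR library. The part of neutrophil transcripts in the values of the 9 genes was not tested.

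Haptoglobin, encoded by Hp, binds free haemoglobin so that it can be cleared. Hp (ENSMUSG00000031722; chromosome 8, 109575128 to 109579172) was at 9.51, 3.14 and 4.99 CPM in Ctrl and 2.41, 2.19 and 5.82 CPM in DTR. DTR replicate 3 lay above 2 of the Ctrl libraries, so the groups overlapped. The log2 fold change was -0.77 (SE 0.513, 95% interval -1.95 to 0.42, adjusted p = 0.700 in edgeR with Benjamini-Hochberg adjustment), an interval that includes 0. It was -1.35 without DTR replicate 3 and -0.24 without Ctrl replicate 1, and without DTR replicate 3 each DTR library lay below each Ctrl library, as in 11.8% of all genes tested without that library. Cd163, the macrophage receptor that takes up haptoglobin with its haemoglobin, did not exceed 0.639 CPM.

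Ptx3 encodes a long pentraxin that binds complement C1q and microbes and is made by fibroblasts and myeloid cells. Ptx3 (ENSMUSG00000027832; chromosome 3, 66219910 to 66225805) lies within Veph1, which is on the opposite strand. It was at 96.5, 33.1 and 37.4 CPM in Ctrl and 70.4, 27.9 and 164 CPM in DTR. Both the lowest and the highest library were DTR libraries. The log2 fold change of 0.65 (SE 0.626, 95% interval -0.80 to 2.09, adjusted p = 0.793 in edgeR with Benjamini-Hochberg adjustment) rested on DTR replicate 3, without which it was -0.18. Tnfaip6, whose product crosslinks PTX3 with hyaluronan, was at 85.1, 29.8 and 19.5 CPM in Ctrl and 53.7, 36.8 and 164 CPM in DTR, so that its 3 highest libraries were those of Ptx3, in the same order.

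Slpi encodes an inhibitor of neutrophil elastase and related serine proteases. Slpi (ENSMUSG00000017002; chromosome 2, 164354070 to 164389095) had 47, 36 and 22 reads in Ctrl and 60, 46 and 18 in DTR. At 1.40 ± 0.580 CPM (SD, n = 3) in Ctrl and 1.34 ± 0.491 CPM (SD, n = 3) in DTR, the groups overlapped almost fully. The log2 fold change was -0.05 (SE 0.502, 95% interval -1.21 to 1.11, adjusted p = 0.983 in edgeR with Benjamini-Hochberg adjustment), an interval that includes changes of more than 1 in either direction. Of its target proteases, Elane, neutrophil elastase, did not exceed 0.316 CPM and Ctsg, cathepsin G, did not exceed 0.0643 CPM.

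**Figure D2:**
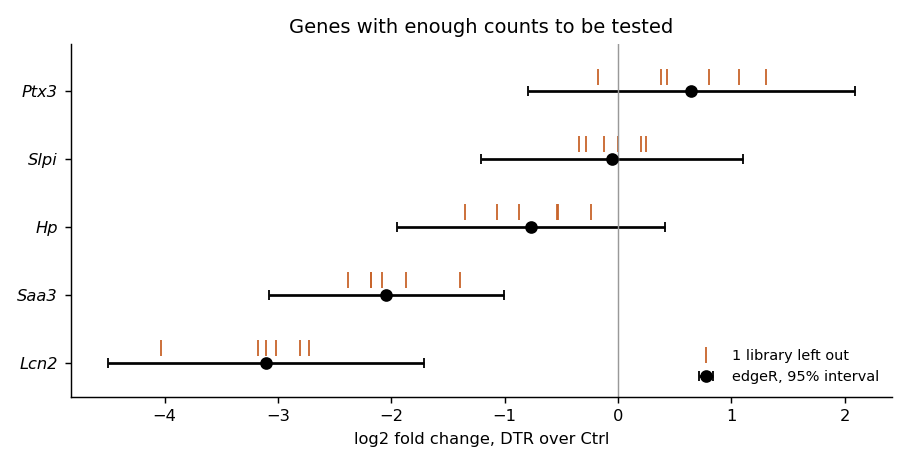
Log2 fold changes (DTR over Ctrl, edgeR) of the 5 genes that passed the filter, with 95% intervals, and orange ticks for the 6 fits with 1 library left out. Ticks of Saa3 and Lcn2 stay below -1.39 and -2.73 or reach them, those of Hp stay below 0, and those of Ptx3 and Slpi lie on both sides of 0.

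Per length, as RPKM, which is CPM divided by the kilobases of annotated exon, Ptx3 led in Ctrl with 20.8 ± 13.2 RPKM (SD, n = 3), followed by Saa3 with 9.90 ± 6.48 and Hp with 3.66 ± 2.04. Although these spreads overlap, the order Ptx3, Saa3, Hp, Lcn2 held within each of the 3 Ctrl libraries. S100a9 (1.97 ± 2.30), Lcn2 (1.26 ± 0.138) and Slpi (1.19 ± 0.492) did not differ beyond their spread. S100a8 averaged 0.370 ± 0.597 RPKM. In DTR, Ptx3 was again first with 32.6 ± 25.9 RPKM, and Saa3 at 2.40 ± 0.538 did not differ beyond the spread from Hp at 2.16 ± 1.27. Hp exceeded Saa3 in DTR replicate 3, at 3.62 against 2.84 RPKM, which it did in no Ctrl library. Slpi at 1.13 ± 0.416 RPKM was followed by S100a9 at 0.214 ± 0.186, Lcn2 at 0.151 ± 0.132 and S100a8 at 0.149 ± 0.140.

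Across the 6 libraries the log2 CPM of Saa3 had an r of 0.857 with that of Lcn2 and 0.820 with that of Hp, and Lcn2 had 0.700 with Hp. Ptx3 had an r of 0.614 with Hp, 0.173 with Saa3 and 0.0431 with Lcn2. Slpi had an r between -0.192 and 0.107 with the other 4 genes tested. These are descriptions over 6 libraries that share their groups and their uneven fibroblast reads, and no test was made of them.

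Fibroblast reads ran from 5211 to 14150 CPM between libraries. The genes were therefore also expressed per 1000 reads of the 10 fibroblast genes, a scaling chosen after the data were seen. Most of these reads were collagen reads, with Col3a1, Col1a1 and Col1a2 at 6252, 4285 and 2538 of 13680 CPM in Ctrl replicate 1. In Ctrl, Pdpn (73.2, 46.0 and 46.8 CPM) and Fap (11.9, 8.37 and 9.20 CPM) were less uneven, but Pdgfra (125, 42.6 and 62.9 CPM) was not. Whether collagen reads follow fibroblast content was not tested. On this scale Saa3 was at 3.26, 2.29 and 3.98 in Ctrl and 0.615, 0.838 and 0.523 in DTR. The excess of Ctrl replicate 1 over the other Ctrl libraries seen in CPM was absent here, relative to a divisor made mostly of collagen reads. Lcn2 was at 0.268, 0.630 and 0.566 in Ctrl and 0.0214, 0.0287 and 0.0560 in DTR. Hp, at 0.695, 0.598 and 0.957 in Ctrl and 0.222, 0.390 and 0.411 in DTR, had groups that no longer overlapped. Ptx3, at 7.05, 6.30 and 7.18 in Ctrl and 6.48, 4.97 and 11.6 in DTR, still overlapped, and its Ctrl libraries now lay close together. Saa3, Lcn2 and Hp thus had every DTR library below every Ctrl library, as had 0.932% of all genes tested. S100a9, which was not tested, had such groups on both scales. In CPM the share of all genes was 8.19%, and the divisor used here itself varied from 5211 to 13680 CPM within Ctrl. Why the share fell was not tested, so it is no measure of how unusual these genes are.

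With this scaling 13017 of the 15133 genes tested had a log2 fold change below 0, and the median log2 fold change of all genes was -0.415. The edgeR log2 fold changes on this scale were -2.27 for Saa3, -3.755 for Lcn2, -1.14 for Hp, 0.16 for Ptx3 and -0.26 for Slpi. None of them had an adjusted p under 0.05 (edgeR, Benjamini-Hochberg, lowest 0.147 for Lcn2). Relative to the median of all genes they were -1.86, -3.34, -0.72, 0.58 and 0.15 in the same order, and these shifted values carry no test. Whether the fibroblasts or other cells of the sorted fraction made these transcripts was not tested.

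**Figure D3:**
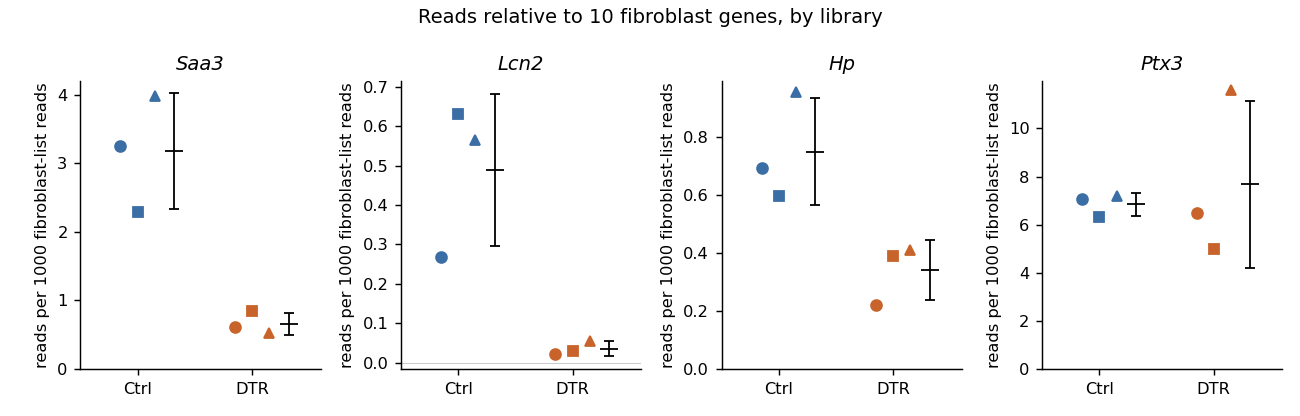
Reads of 4 genes per 1000 reads of 10 fibroblast genes, in each library; symbols, means and SDs are as in the plot of CPM by library. Saa3, Lcn2 and Hp have all DTR libraries below all Ctrl libraries, and the groups of Ptx3 overlap.

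The other lists of cell type markers were small beside fibroblast and melanoma genes. The 15 macrophage genes summed to 135, 229 and 157 CPM in Ctrl and 174, 164 and 172 CPM in DTR. Within that sum Mrc1 was lower (log2 fold change -0.57, SE 0.195) and Ly6c2 higher (1.56, SE 0.533) in every DTR library. Ctrl replicate 1, with the most Saa3, had the lowest macrophage sum. The 8 endothelial genes summed to 34.4, 27.0 and 27.9 CPM in Ctrl and 47.1, 33.2 and 100.2 CPM in DTR, although CD31+ cells had been gated out. Tek alone gave 62.8 of the 100.2 CPM in DTR replicate 3, where Cdh5 had 0 reads and Pecam1 was at 4.01 CPM. Cldn5, Egfl7 and Emcn had at most 3 reads in any library. Of 5 endothelial genes tested, Vwf and Tek had an unadjusted p under 0.05 in edgeR. Both were higher in DTR (log2 fold changes 0.51, SE 0.140, and 1.84, SE 0.778), and Cdh5 was at -1.53 (SE 0.957). Of 8 hepatocyte genes, which summed to no more than 4.44 CPM, Alb and Serpina1a were at 0 in every library, while Ahsg had 27 to 71 reads in each. Adipocyte genes, whose cell type also secretes Saa3, Lcn2 and haptoglobin, reached 3.39 CPM in Ctrl replicate 1 and 0.0965 to 1.40 CPM in the other 5 libraries. Of the 9 adipocyte genes with reads, 5 were highest in Ctrl replicate 1 and 4 in a DTR library, and Adipoq alone, at no more than 10 reads, was lower in every DTR library. Keratinocyte genes summed to between 9.41 and 13.9 CPM, and Krt1, Krt15, Krt17 and Krt6a were at 0 reads. The part of adipocytes, macrophages or endothelial cells in the values of Saa3, Lcn2 and Hp was not tested.

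**Figure D4:**
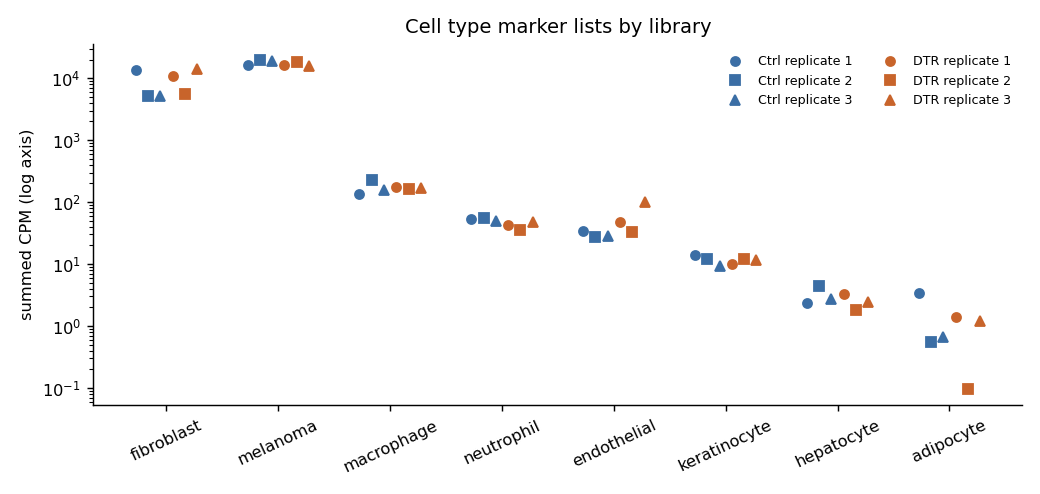
Summed CPM of 8 lists of cell type markers in each library, on a log axis; blue is Ctrl, orange is DTR, and shapes are replicates. Fibroblast sums run from 5211 to 13680 CPM in Ctrl and from 5605 to 14150 CPM in DTR, and adipocyte sums run from 0.0965 in DTR replicate 2 to 3.39 in Ctrl replicate 1.

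Other acute-phase genes did not follow Saa3 and Lcn2. Of 30 listed, 11 were tested, 0 had an unadjusted p under 0.05, and 5 were below 0 and 6 above 0, with a median log2 fold change of 0.09 against -0.0029 for all genes tested. Their values ran from -0.89 for Il1rn (SE 0.516), the interleukin 1 receptor antagonist, to 0.92 for Tnfaip6 (SE 0.667). C3, the central complement component, was at 811, 377 and 569 CPM in Ctrl and 852, 359 and 2112 CPM in DTR. Lbp, which presents lipopolysaccharide, Serpina3n, a protease inhibitor, and Steap4, a metal reductase, had log2 fold changes of 0.63, 0.09 and 0.20. The liver genes Orm1, Orm2, Orm3, Apcs and Saa4 were at 0 reads in every library.

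All 27 genes listed as inducers of these proteins or parts of their signal path were tested. Of these 7 were below 0 and 20 above 0, against 7626 below and 7507 above 0 of all genes tested. The median log2 fold change was 0.22 against -0.0029 for all genes, and 0 of the 27 had an unadjusted p under 0.05, against 4.11% of all genes lower and 3.81% higher. Il6 was at 24.7, 5.31 and 8.53 CPM in Ctrl and 20.3, 8.98 and 42.3 CPM in DTR, a log2 fold change of 0.89 (SE 0.659), the highest of the list. Lif, an interleukin 6 family cytokine, was the lowest at -1.13 (SE 0.489), from 6.20, 3.05 and 2.77 CPM in Ctrl to 0.959, 1.80 and 2.78 CPM in DTR. For Tnf the DTR libraries, at 0.988, 0.869 and 1.10 CPM, were all below those of Ctrl, at 1.27, 2.13 and 1.69 CPM. Il1b had 13.1, 3.85 and 5.13 CPM in Ctrl and 5.90, 5.82 and 5.82 CPM in DTR, so that Ctrl replicate 1 was again the top library. The transcription factors Cebpb, Cebpd and Stat3 had log2 fold changes of 0.34, 0.78 and -0.05, and the STAT3 target Socs3 one of 0.36.

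Of 21 receptors and binding partners, 15 were tested, with 2 lower and 2 higher in DTR at an unadjusted p under 0.05 and a median log2 fold change of 0.15. Over all genes tested, 4.11% were lower and 3.81% higher at that p. Mmp9 was the lowest at -1.96 (SE 0.433), and it too had been named by the study from these libraries. Bsg, a receptor proposed for S100A9 that also induces matrix metalloproteinases, was at 620, 639 and 548 CPM in Ctrl and 456, 457 and 406 CPM in DTR, a log2 fold change of -0.45 (SE 0.0971). Fgf2, a growth factor bound by PTX3, was the highest at 1.91 (SE 0.681), with 10.2, 4.10 and 4.67 CPM in Ctrl and 14.2, 7.46 and 49.5 CPM in DTR. Tlr2 had a log2 fold change of 0.79 (SE 0.323), and the log2 fold change of Tlr4, a receptor for S100A8 and S100A9, was 0.25 (SE 0.116). Adjusted p-values of these genes were 0.602 or above in edgeR with Benjamini-Hochberg adjustment, and DESeq2 called Mmp9 alone among them.

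**Figure D5:**
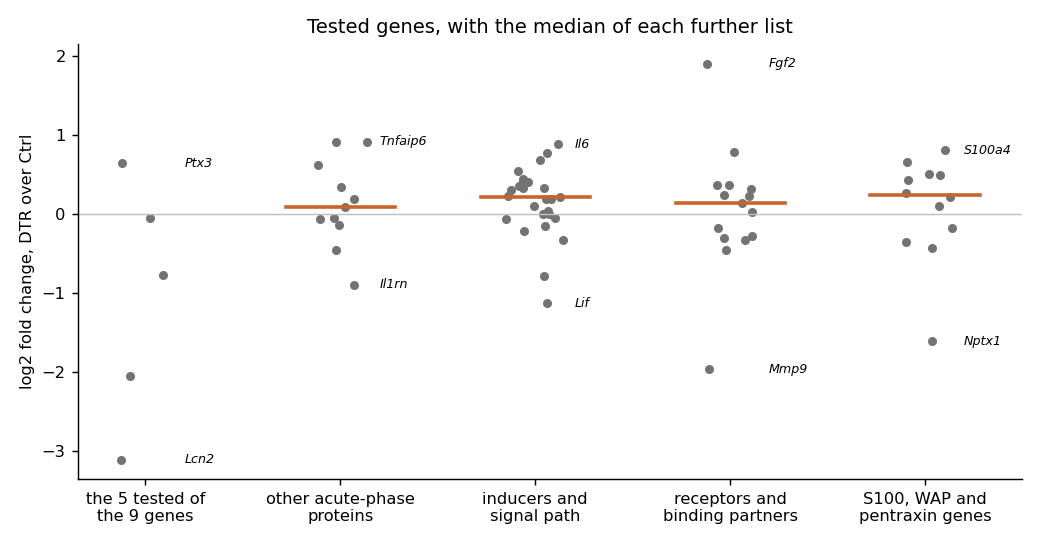
Log2 fold changes (DTR over Ctrl, edgeR) of the tested genes of the set and of 4 related lists; orange lines are medians of the related lists, and the lowest and highest gene are named. Saa3 and Lcn2 lie at -2.04 and -3.11, and list medians run from 0.09 to 0.24.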

How the data were processed

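Stranded total RNA libraries were made from sorted PDPN+PDGFRα+ cells of MO5 tumors, 3 from Ctrl and 3 from DTR mice, grouped by the sample labels. The authors trimmed reads with cutadapt 3.4, aligned them to GRCm38 with STAR 2.7.3a and counted them per gene with featureCounts 2.0.1 and strand information. The handling of multiply aligned reads is not given in the sources used here. The deposited raw counts are the only values used. The table also holds the authors' scaled counts, fold changes and p-values, which were left out.

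The 9 genes were taken by their name in the table. Genes, gene lists, motifs and alternatives were chosen with earlier results of these data known. Genes were kept by filterByExpr (minimum count 10, minimum total 15; 15133 genes), scaled with TMM factors and tested two-sided by quasi-likelihood in edgeR without covariates, with Benjamini-Hochberg adjustment over all genes and a threshold of 0.05 (R 4.3.3, edgeR 4.0.16). SE were taken as log2 fold changes divided by the root of F, and 95% intervals use 4 residual and 3.94 prior degrees of freedom. Single genes were also compared by exact permutation of log2 CPM (prior count 2). Named genes are the 9 members, the lowest and highest gene of each list, and genes that bind or induce a member; others (such as Itgb2, Cxcr2, Csf3r, Il1r2 and C3) were named after their values were seen. Coordinates, exon lengths and shared 50-base words come from GENCODE M21 (GRCm38), promoters from RefSeq (GRCm38.p6). The steps were tested on simulated data. Alternatives were other scalings and filters, robust moderation, DESeq2 1.42.0, a replicate block, a loess offset (span 0.5) on genomic span and leaving out each library. DESeq2 with a library left out and scaling to fibroblast reads were added after seeing the data. Figures were drawn with matplotlib 3.10.9.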

Additional observations from a re-analysis of the deposited data

How the results depend on the processing

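Saa3 and Hp had log2 fold changes below 0 in each of the 22 fits of all genes, and so had Lcn2 in the 21 that tested it. The filter of 10 reads in every library dropped Lcn2. With edgeR none of the 9 genes was called under any alternative. Over all fits the adjusted p ran from 2.14e-06 to 0.926 for Saa3 and from 7.63e-08 to 0.852 for Lcn2, where DESeq2 without a library gave the lowest values. Over all genes, edgeR called between 0 and 2 when 1 library was left out, the 2 without Ctrl replicate 1, and 2 with libraries scaled to fibroblast reads. DESeq2 called 31 genes and 2 of the 9. With each library left out, a setting added after seeing the data, DESeq2 called between 22 and 199 genes (116 without Ctrl replicate 1, 83 without DTR replicate 2 and 25 without DTR replicate 3) and between 0 and 2 of the 9, with 0 without DTR replicate 1 and 1 without DTR replicate 3. The number of tested genes of the set with every DTR library below every Ctrl library was 2, beside 8.19% of all genes tested. It was 1 with 10 reads required in every library (all genes 8.48%), 3 with no filter (5.39%) and 3 with fibroblast scaling (0.932%). When 1 library was left out it ran from 2 to 4, with 4 without DTR replicate 3 (11.8%), and the share of all genes rose to between 11.8% and 15.2%.

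Leaving out 1 library gave edgeR log2 fold changes from -0.178 to 1.31 for Ptx3 and from -0.34 to 0.244 for Slpi. The direction of Ptx3 turned without DTR replicate 3 (-0.178 in edgeR, -0.177 in DESeq2). That of Slpi turned without Ctrl replicate 1 (0.244 and 0.25), without Ctrl replicate 2 (0.00474 and 0.0137) and without DTR replicate 3 (0.208 and 0.212). The cause was not tested. Same-numbered libraries correlated in their deviations from the group means with r = 0.114, 0.132 and -0.042, so the numbers were not taken as pairs. With the replicate block edgeR called 0 genes and 0 of the 9, with log2 fold changes of -1.87 for Saa3 and -3.31 for Lcn2. With 5 to 18 reads per DTR library for Lcn2 and at most 6 for S100a8 and S100a9, the depth limits the precision of these fold changes.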

Other observations

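Relatives of these genes in the same protein families showed no shared lowering. Of 21 further S100, WAP-domain and pentraxin genes, 12 were tested, 4 were below 0 and 8 above 0, and the median log2 fold change was 0.24. S100a4, S100a10, S100a11 and S100a6, which fibroblasts express, had log2 fold changes of 0.81, 0.50, 0.51 and 0.26 (SE 0.636, 0.322, 0.288 and 0.367). S100a4 had only 5 to 37 reads per library. The neuronal pentraxins Nptx1 and Nptxr were the genes of that list with an unadjusted p under 0.05 in edgeR, both lower in DTR at -1.61 (SE 0.532) and -0.34 (SE 0.131). Nptx1 was at 0.775, 2.05 and 1.12 CPM in Ctrl and 0.378, 0.386 and 0.529 CPM in DTR. Of the WAP-domain relatives of Slpi only Wfdc17 passed the filter, with 57, 49 and 23 reads in Ctrl and 46, 46 and 23 in DTR and a log2 fold change of -0.43 (SE 0.484).

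Among all tested genes, the profile over the 6 libraries most like the mean standardized profile of Saa3, Lcn2, Hp, Ptx3 and Slpi was that of Lmna, which encodes nuclear lamins A and C (Pearson r = 0.986), then of Kctd15 (r = 0.986) and Sipa1 (r = 0.983). Lmna was at 424, 324 and 337 CPM in Ctrl and 319, 278 and 347 CPM in DTR, and its log2 fold change was -0.20 (SE 0.131). These values describe 6 libraries and carry no test.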
